A study of Mus musculus with 12 samples.

Results

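The genes of mitochondrial fatty acid oxidation were followed in mouse mammary tumours treated with MBQ-167, paclitaxel or both. The set holds 10 genes given as a list of symbols: Cpt1a, Cpt2, Slc25a20, Acads, Acadm, Acadl, Acadvl, Hadha, Hadhb and Etfdh. The list sets no threshold on a measured value, but it was drawn up with earlier results of these data known. All 10 were found among the 46078 genes of the count table, and all 10 were among the 18252 genes with enough counts to be tested. The tumours grew in BALB/c mice from 300000 cells of the metastatic mammary carcinoma line 4T1, which carried firefly luciferase in every group, placed in mammary fat pad number 4. Treatment began on day 14, ran for 2 weeks, and the tumours were taken on day 28. The groups were MBQ-167 at 100 mg/kg, 5 times a week, paclitaxel at 5 mg/kg, 1 time a week, the combination of both drugs, and vehicle, with 3 libraries each. MBQ-167 is named by the submitters as an inhibitor of Rac and Cdc42, small GTPases that control the actin cytoskeleton, and paclitaxel stabilises microtubules. The labels call the 3 libraries of a group biological replicates. The sources used here give neither the ages of the mice nor how many mice the libraries came from, and the p-values describe the variation among these libraries.

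Fatty acid oxidation breaks activated fatty acids down in the mitochondrial matrix, in cycles that each release acetyl-CoA and pass electrons to the respiratory chain. Long chains enter through the carnitine shuttle: CPT1A on the outer membrane makes the acylcarnitine, the carrier encoded by Slc25a20 moves it across the inner membrane, and CPT2 turns it back into acyl-CoA. The first step of each cycle is made by acyl-CoA dehydrogenases that differ in the chain length they prefer, from very long (Acadvl) through long (Acadl) and medium (Acadm) to short (Acads). Their electrons travel through the electron transfer flavoprotein to the ubiquinone oxidoreductase encoded by Etfdh. The later steps on long chains are made by the mitochondrial trifunctional protein, a complex of the Hadha product, which carries the hydratase and the hydroxyacyl-CoA dehydrogenase, and the Hadhb product, which carries the thiolase. Many genes of the pathway are known targets of PPAR nuclear receptors in liver, heart and muscle.

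The DNA before 4 of the genes is shown. The tests below turn on Hadha, Hadhb and Acads, and Acadm was the member best correlated with Acads over the 12 libraries. Hadha and Hadhb lie head to head on chromosome 5, with RefSeq starts at 30154980 on the minus strand and 30155253 on the plus strand, which is 273 bases apart. In GENCODE vM21 (GRCm38) the genes span chr5:30118304-30155162 and chr5:30155248-30184593. The stretch between them that lies upstream of both and in no GENCODE exon runs over 85 bases. Sequences are RefSeq's for GRCm38.p6, 5′ to 3′, and capitals mark AGGTCA (a hexamer bound by many nuclear receptors), CCAAT and GGGCGG on either strand.
Between Hadha and Hadhb, chr5:30155163-30155247, plus strand: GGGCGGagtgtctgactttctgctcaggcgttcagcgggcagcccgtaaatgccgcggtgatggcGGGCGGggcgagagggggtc
Upstream of Acads, chr5:115119347-115119596, minus strand: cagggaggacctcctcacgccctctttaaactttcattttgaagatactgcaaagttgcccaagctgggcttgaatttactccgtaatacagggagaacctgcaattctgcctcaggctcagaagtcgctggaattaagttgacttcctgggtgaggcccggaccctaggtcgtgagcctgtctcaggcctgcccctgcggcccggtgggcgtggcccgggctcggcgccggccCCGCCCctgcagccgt
Upstream of Acadm, chr3:153944644-153944893, minus strand: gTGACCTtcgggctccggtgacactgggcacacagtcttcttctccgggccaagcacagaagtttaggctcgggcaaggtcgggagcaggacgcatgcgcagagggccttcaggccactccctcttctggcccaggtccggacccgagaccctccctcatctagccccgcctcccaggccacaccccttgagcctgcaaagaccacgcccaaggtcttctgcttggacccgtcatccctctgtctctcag

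In windows of 300 bases, from 250 before to 50 after each RefSeq start, GGGCGG was found in 8 of the 10 genes, against 35.7% of 32851 promoters. The windows of Hadha and Hadhb share 228 bases, and the GGGCGG at base 161 of these was counted for both genes. AGGTCA was found in 3 of 10 (Cpt1a, Acadm and Acadvl), against 16.3% of promoters, and CCAAT in 2 of 10 (Cpt1a and Etfdh), against 37.4%. A pair of AGGTCA hexamers with 1 base between them, and the longer TCAAGGTCA, were found in none of the 10, against 0.0396% and 0.423% of promoters. TCAAGGTCA contains AGGTCA, so those counts overlap. The matches describe letters in these windows and show no binding.

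The libraries held 11540557 to 17001562 counts, with 52.67% to 71.54% in protein-coding genes, and each gene of the set had between 138 and 1727 counts in a library. Some features of the libraries moved with the groups. The TMM factors were 0.9398 to 1.045 in MBQ-167, 1.03 to 1.222 in paclitaxel, 0.9333 to 1.179 in combination and 0.8263 to 0.9036 in vehicle libraries, with no overlap between drug and vehicle libraries. The share of counts in Gm26917, Gm42418 and CT010467.1, loci that resemble ribosomal RNA, was 30.13% to 36.81% in MBQ-167, 17.11% to 32.08% in paclitaxel, 19.88% to 37.43% in combination and 31.64% to 37.54% in vehicle libraries, and these ranges overlapped. A gene's deviation was correlated, within each library, with the GC content of its longest annotated transcript. This correlation was 0.00609 to 0.139 in MBQ-167, -0.287 to -0.114 in paclitaxel, -0.192 to -0.0273 in combination and 0.116 to 0.293 in vehicle libraries. The summed level of 12 neutrophil markers was 163 to 221.5 CPM (counts scaled to the library size with TMM factors) in MBQ-167, 96.57 to 192.8 CPM in paclitaxel, 98.26 to 142 CPM in combination and 334.9 to 1470 CPM in vehicle libraries, with vehicle library 3 the highest. The summed level of 7 erythroid markers was 44.55 to 107.5, 14.54 to 106.6 and 32.62 to 67.48 CPM in the MBQ-167, paclitaxel and combination libraries, and 258.2 to 265.4 CPM in vehicle libraries. Summed markers of adipocytes and skeletal muscle overlapped between groups. The 12 adipocyte markers summed to 11.84 to 163.4 CPM over the drug libraries, highest in paclitaxel library 2, and 20.8 to 64.76 CPM in vehicle. The 13 skeletal muscle markers summed to 10.29 to 32.85 CPM over the drug libraries and 7.907 to 49.83 CPM in vehicle. With any drug set against vehicle, 9 of 10 tested adipocyte markers had a log2 fold change above 0 (median 0.512). Of 10 tested muscle markers, 8 lay below 0 (median -0.815). EdgeR called 0 in each of these lists, against 6.32% of all genes. The 10 epithelial markers expected of a carcinoma were all detected, at 1024 to 1816 CPM over the drug libraries and 1012 to 3174 CPM in vehicle. Over any drug against vehicle, 10 of 10 epithelial markers had a log2 fold change below 0, with a median of -0.582. EdgeR called 2 of them lower, against 3.46% of all genes. Of 9 tested T and NK cell markers, 9 lay above 0, with a median of 0.344. EdgeR called 0 of these, against 6.32% of all genes, and 3 were at an unadjusted p under 0.05, against 23.1%. Below 0 lay 9 of 10 macrophage (median -0.269), 7 of 10 fibroblast (-0.107) and 5 of 8 endothelial markers (-0.047), with 0 called in each list. The part of these features in the results below was not tested beyond the GC correction. In whole tumours, fewer cells of a type and less RNA per cell cannot be told apart.

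Per kilobase of its principal transcript, Acadl had the highest level of the set, at 39.9 ± 4.63 CPM per kb (SD, n = 12 libraries). Acadl stood above Acadvl (23.9 ± 2.87) in all 12 libraries, with no overlap of their ranges. Exons of Dvl2 on the opposite strand cover 42.85% of the exonic bases of Acadvl. How reads there were counted is not given in the sources used here, and the gap between Acadl and Acadvl could depend on it. Hadha (19.6 ± 3.32), Acadm (19.5 ± 2.36) and Acads (17.8 ± 4.12) followed, and their ranges overlapped. Cpt1a averaged 13.3 ± 2.64 and Etfdh 9.86 ± 1.01 CPM per kb, and Cpt1a was above Etfdh in all 12 libraries although their ranges over the libraries overlapped. Slc25a20 (7.68 ± 1.55), Hadhb (6.15 ± 0.702) and Cpt2 (5.93 ± 0.701) were the lowest, and Hadhb was above Cpt2 in 5 of 12 libraries. The level per kb of Hadha was thus well above that of Hadhb, its partner in the trifunctional protein, although 19.7% of the 50-base words in Hadhb transcripts also occur in transcripts of other genes, mostly in the pseudogene Gm13910 on chromosome 2 (122 to 260 counts per library). The order below Acadl and Acadvl depends on the length used: with all annotated exons as the length, Hadha ranks 5 and Acads 3, and Cpt2 ranks 7 while Hadhb is the lowest.

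The genes of the carnitine shuttle did not change past the threshold under any drug. Cpt1a, the rate-limiting entry of long chains, had 57.7, 48.2 and 51.4 CPM in MBQ-167 libraries, 65.2, 39.7 and 68.4 CPM in paclitaxel, 46.5, 72.2 and 51.9 CPM in combination, and 77.6, 59.4 and 51.9 CPM in vehicle libraries. Paclitaxel library 2 was the lowest of all, and the groups overlapped. Slc25a20, the carnitine-acylcarnitine carrier, had 17.98, 13.4 and 14.6 CPM with MBQ-167, 12.6, 10.98 and 17.9 CPM with paclitaxel, 14.1, 12.5 and 10.2 CPM with the combination, and 15.3, 15.4 and 9.32 CPM with vehicle. Its lowest value was in vehicle library 3, and every drug group overlapped with vehicle. Cpt2, the inner membrane transferase, had 15.3, 11.6 and 12.1 CPM with MBQ-167, 14.8, 16.3 and 16.4 CPM with paclitaxel, 12.8, 14.0 and 14.0 CPM with the combination, and 14.6, 11.7 and 15.1 CPM with vehicle. Its levels in the groups overlapped with those of vehicle as well. Over any drug against vehicle, the log2 fold changes were -0.18 ± 0.17 for Cpt1a (SE; adjusted p = 0.5833 by edgeR's quasi-likelihood test with Benjamini-Hochberg adjustment), 0.045 ± 0.19 for Slc25a20 (0.9162) and 0.032 ± 0.13 for Cpt2 (0.9129).

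Among the acyl-CoA dehydrogenases, only the short-chain enzyme Acads was called lower over any drug (edgeR adjusted p = 0.04873). EdgeR called it with neither single drug nor the combination, and its call over any drug was not stable, as given below. The medium-chain, long-chain and very-long-chain enzymes did not change past the threshold. Acads had 32.7, 32.6 and 28.1 CPM in MBQ-167 libraries, 27.4, 27.4 and 30.9 CPM in paclitaxel, 40.2, 26.5 and 24.6 CPM in combination, and 47.0, 47.2 and 34.03 CPM in vehicle libraries. All 6 single-drug libraries were below every vehicle library, and combination library 1 overlapped with vehicle. Acadm, which takes medium chains, had 40.2, 35.8 and 39.8 CPM with MBQ-167, 36.5, 35.2 and 45.8 CPM with paclitaxel, 40.2, 36.1 and 34.7 CPM with the combination, and 50.7, 43.2 and 41.7 CPM with vehicle. The MBQ-167 and combination libraries lay below all vehicle libraries, while paclitaxel library 3 overlapped with them. Acadl had 69.2, 63.6 and 67.9 CPM with MBQ-167, 83.2, 70.8 and 92.7 CPM with paclitaxel, 75.4, 73.5 and 77.7 CPM with the combination, and 88.6, 70.6 and 83.1 CPM with vehicle. Its MBQ-167 libraries were below all vehicle libraries, and the other drug groups overlapped with vehicle. Acadvl had 56.1, 50.4 and 43.7 CPM with MBQ-167, 51.9, 50.96 and 57.1 CPM with paclitaxel, 65.6, 45.5 and 45.4 CPM with the combination, and 53.1, 55.4 and 46.7 CPM with vehicle. The groups overlapped, and 42.85% of the exonic bases of Acadvl lie within exons of Dvl2 on the opposite strand, so that reads of the genes could be told apart there only in stranded counting, which is not given in the sources used here.

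Etfdh, which hands the electrons of all these dehydrogenases to ubiquinone, had 24.7, 20.9 and 20.8 CPM in MBQ-167 libraries, 23.4, 21.3 and 22.2 CPM in paclitaxel, 23.2, 21.7 and 26.6 CPM in combination, and 28.9, 23.7 and 23.9 CPM in vehicle libraries. The paclitaxel libraries were all below those of vehicle, and the other groups overlapped with it. The log2 fold change of Etfdh over any drug was -0.16 ± 0.11 (SE; edgeR adjusted p = 0.3974).

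Hadha, the subunit with the hydratase and the dehydrogenase, had the smallest p-value of the 10 genes in each comparison with vehicle. It had 73.6, 70.8 and 69.8 CPM in MBQ-167 libraries, 75.9, 57.7 and 70.3 CPM in paclitaxel, 73.7, 76.0 and 81.0 CPM in combination, and 102, 91.1 and 102 CPM in vehicle libraries. All 9 drug libraries were below all 3 vehicle libraries. Hadhb, whose product forms the same complex, had 12.1, 11.6 and 12.7 CPM with MBQ-167, 12.4, 13.3 and 10.6 CPM with paclitaxel, 14.2, 15.6 and 12.1 CPM with the combination, and 10.7, 13.7 and 12.2 CPM with vehicle. Its groups overlapped throughout.

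**Figure D1:**
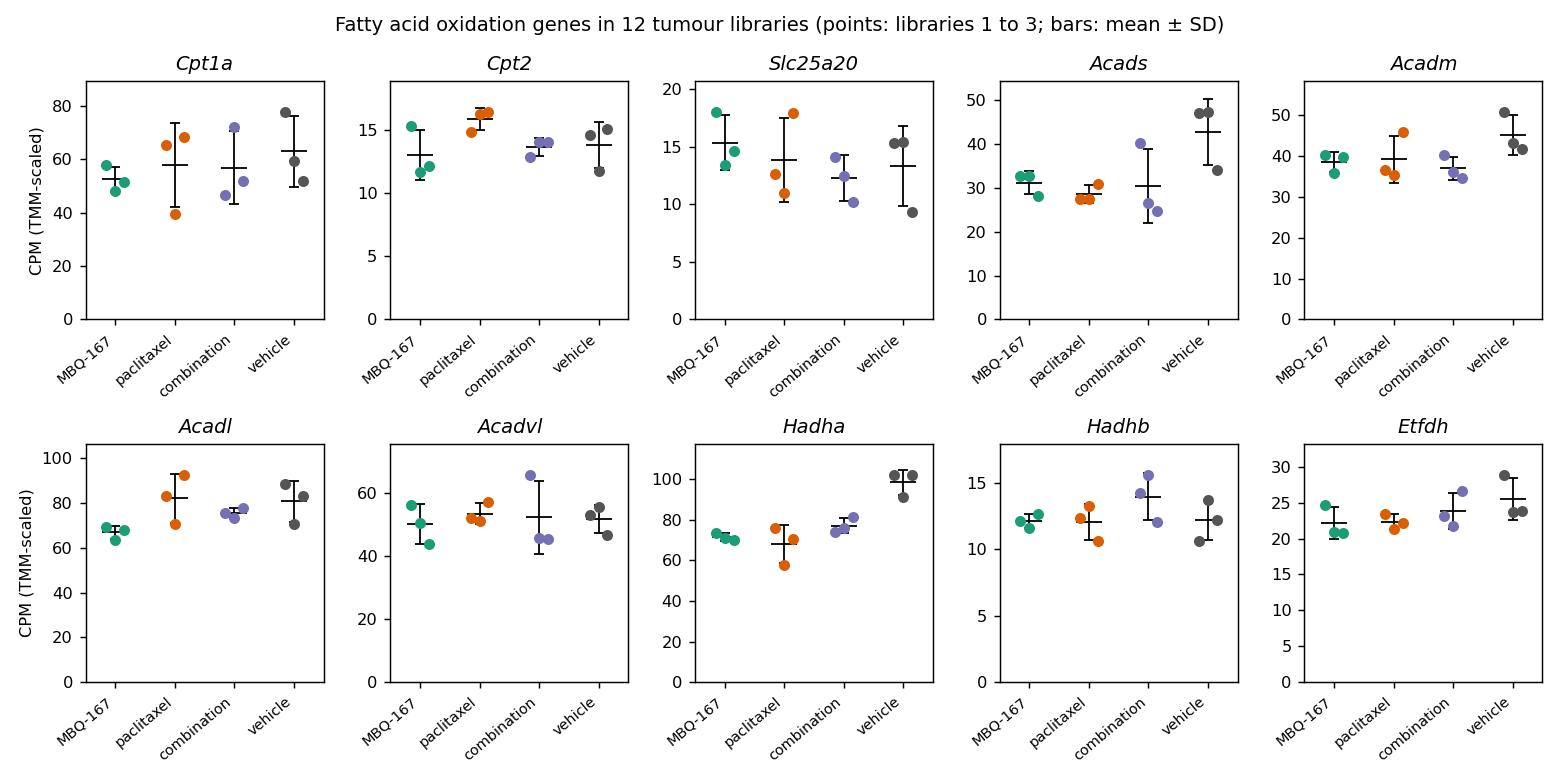
Levels of the 10 genes in CPM, TMM-scaled (vertical axes from 0, 1 scale per gene), for the MBQ-167, paclitaxel, combination and vehicle libraries. Points are libraries 1 to 3 and bars the mean ± SD; for Hadha the 9 drug libraries lie between 57.7 and 81.0 CPM, below the vehicle libraries at 91.1 to 102 CPM.

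In the comparison with vehicle, Hadha averaged 68.0 ± 9.34 CPM with paclitaxel and 98.3 ± 6.28 CPM with vehicle (SD, n = 3 each). Its log2 fold change with paclitaxel was -0.53 ± 0.11 (SE), which passed edgeR's quasi-likelihood test at an adjusted p of 0.01763. Hadha was the 1 member of 10 called with paclitaxel, where 5.66% of all genes were called and 2.49% were called lower. Its log2 fold change was -0.51 without vehicle library 1 (edgeR adjusted p = 0.05949), -0.43 without paclitaxel library 2 (0.07563) and -0.53 in a fit of only these 2 groups (0.08321), and none of these passed. Acads averaged 28.6 ± 1.99 CPM with paclitaxel and 42.8 ± 7.55 CPM with vehicle, a log2 fold change of -0.58 ± 0.18 (edgeR adjusted p = 0.07305), which did not pass. Acads with paclitaxel passed in 2 of 8 other settings. These were DESeq2 (adjusted p = 0.03231) and no filter on low counts (edgeR adjusted p = 0.02305). Members at an unadjusted p under 0.05 numbered 2 of 10 with paclitaxel, both lower, against 22.6% of all genes, and 3 of 10 were below vehicle without overlap, against 12.1% of all genes. The remaining members had log2 fold changes with paclitaxel between -0.21 (Acadm) and 0.20 (Cpt2).

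With MBQ-167, 0 of 10 members were called by edgeR, where 0.0931% of all genes were called. Hadha averaged 71.4 ± 1.99 CPM with MBQ-167 and 98.3 ± 6.28 CPM with vehicle, a log2 fold change of -0.46 ± 0.11 (edgeR adjusted p = 0.1415), and DESeq2 called it at an adjusted p of 0.01965. Acads (-0.46 ± 0.18, edgeR adjusted p = 0.3075) and Acadl (-0.27 ± 0.12, 0.3584) were the others at an unadjusted p under 0.05. These are 3 of 10 members, all lower, against 12.9% of all genes. Without overlap, 4 of 10 members were below vehicle (Acads, Acadm, Acadl and Hadha), against 8.79% of all genes.

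With the combination, 0 of 10 members were called by edgeR and 0 by DESeq2, where edgeR called 1.84% of all genes. Hadha averaged 76.9 ± 3.75 CPM with the combination and 98.3 ± 6.28 CPM with vehicle, a log2 fold change of -0.35 ± 0.11 (edgeR adjusted p = 0.1186). Acads (-0.50 ± 0.18, 0.1629) and Acadm (-0.29 ± 0.13, 0.252) were also at an unadjusted p under 0.05, which makes 3 of 10 members, all lower, against 18.4% of all genes. Hadha and Acadm, 2 of 10, were below vehicle without overlap, against 9.86% of all genes.

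Over any drug against vehicle, the mean of the 3 drug groups minus vehicle, Hadha and Acads were lower. Hadha had a log2 fold change of -0.45 ± 0.09 (SE, edgeR adjusted p = 0.01325), lower in 9 of 9 drug libraries than in any vehicle library, and Acads one of -0.51 ± 0.14 (edgeR adjusted p = 0.04873). They are 2 of 10 members, where 6.32% of all genes were called and 3.46% were called lower. Acadm had a log2 fold change of -0.24 ± 0.10 (edgeR adjusted p = 0.1819), which makes 3 of 10 members at an unadjusted p under 0.05, against 23.1% of all genes. Hadha was the 1 member of 10 whose drug libraries all lay below vehicle, against 3.95% of all genes. The other members lay between -0.18 (Cpt1a) and 0.059 (Hadhb). The median over the 10 members was -0.14, beside -0.0037 over all genes tested. It was -0.0405 without vehicle library 1 and -0.209 without vehicle library 2, and -0.259 with the GC correction, where that of all genes was -0.0523. These comparisons share the vehicle libraries and are not independent of each other.

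The call of Hadha over any drug passed in all 7 other settings, with the GC correction among them (-0.42 ± 0.09, edgeR adjusted p = 0.02282), and in 11 of 12 fits that left out a library. Without vehicle library 1 its edgeR adjusted p was 0.06819. The call of Acads was less stable: it passed in 5 of 7 other settings and in 2 of 12 fits without a library. With the GC correction it was -0.42 ± 0.13 (edgeR adjusted p = 0.08891), and with protein-coding genes only the adjusted p was 0.05451. The longest annotated transcript of Acads has a GC content of 59.7%, and that of Hadha 51.3%. The median of the genes tested was 49.4%.

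**Figure D2:**
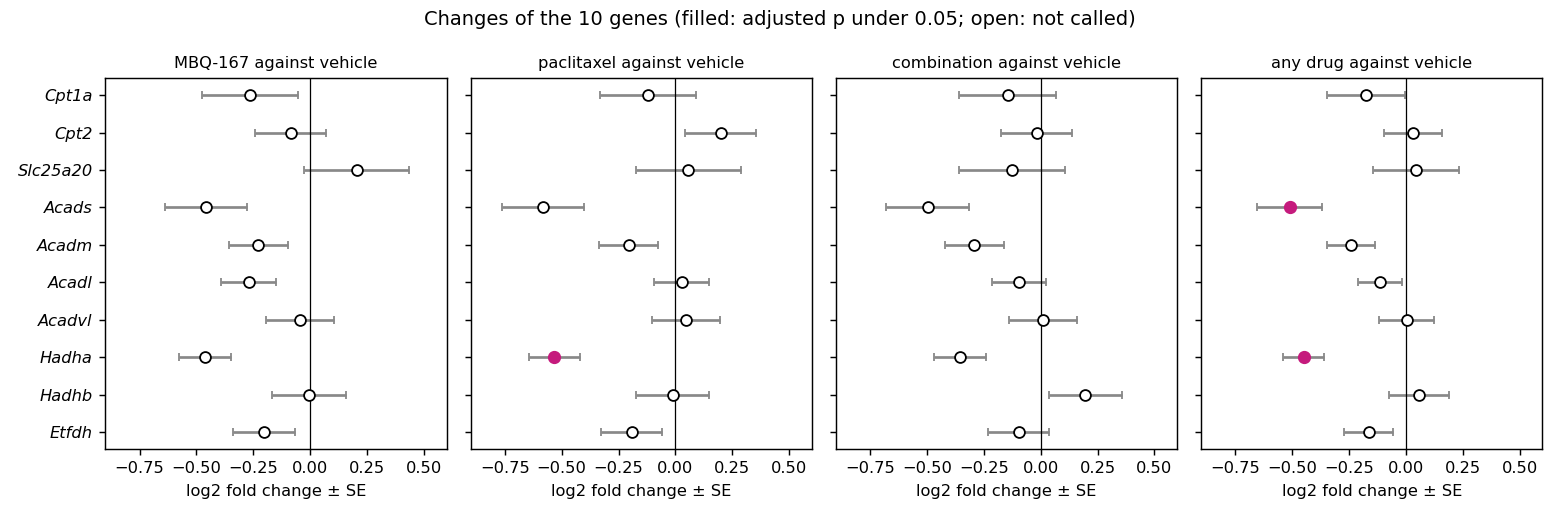
Log2 fold changes of the 10 genes with their SE (horizontal axes) for MBQ-167, paclitaxel, the combination and any drug, each against vehicle. Filled points passed edgeR's test at an adjusted p under 0.05: Hadha with paclitaxel (-0.53), and Hadha (-0.45) and Acads (-0.51) over any drug.

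Hadha and Hadhb, the subunits of the trifunctional protein, stood differently to vehicle in the deposited counts, and that difference was close to 0 after the GC correction. The ratio of Hadha to Hadhb counts was 6.08, 6.09 and 5.51 in MBQ-167 libraries, 6.13, 4.35 and 6.62 in paclitaxel, 5.18, 4.87 and 6.72 in combination, and 9.57, 6.66 and 8.34 in vehicle libraries. Vehicle library 2 lay within the range of the drug libraries. On the log2 scale the ratio averaged 2.50 ± 0.21 in the 9 drug libraries and 3.02 ± 0.26 in the 3 vehicle libraries (SD), a difference of -0.51 (two-sided exact permutation p = 0.0182 over 220 splits; the test was chosen after the values were seen). Without vehicle library 1 the difference was -0.39 and without vehicle library 3 it was -0.49, each with an exact p of 0.07273. With the counts of the pseudogene Gm13910 added to Hadhb it was -0.39 (exact p = 0.01818). After the per-library correction for GC content the difference was -0.07 (exact p = 0.7091). The longest annotated transcript of Hadhb has a GC content of 39.1%, the lowest of the 10 genes. The GC correction rests on that transcript of each gene, and whether it is the expressed form was not tested. It turned the log2 fold change of Hadhb over any drug to -0.35 ± 0.13 (edgeR adjusted p = 0.1283), against 0.059 ± 0.13 without the correction.

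**Figure D3:**
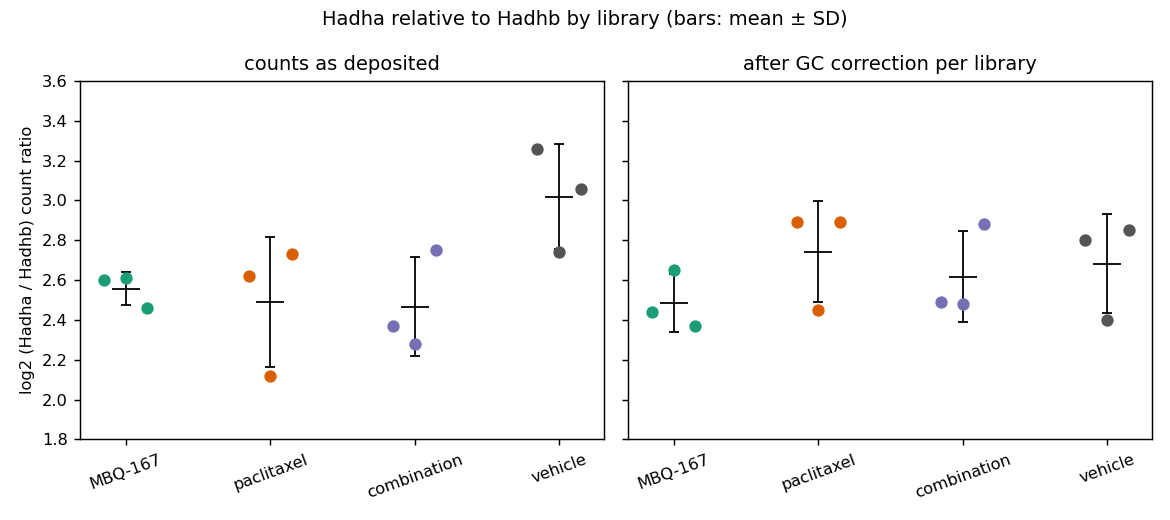
Log2 ratio of Hadha to Hadhb counts (vertical axis, from 1.8) in the MBQ-167, paclitaxel, combination and vehicle libraries, for the counts as deposited (left) and after the GC correction (right); points are libraries and bars the mean ± SD. As deposited the drug libraries averaged 2.50 and the vehicle libraries 3.02, and after the correction the groups overlapped, with vehicle at 2.80, 2.40 and 2.85.

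The combination was also set against each single drug, to ask what the second drug adds. Against MBQ-167, 0 of 10 members were called by edgeR and 0 at an unadjusted p under 0.05, against 0% and 5.15% of all genes, and DESeq2 called 0 of 10. Hadha averaged 76.9 ± 3.75 CPM with the combination and 71.4 ± 1.99 CPM with MBQ-167 (log2 fold change 0.11 ± 0.11, edgeR adjusted p = 0.9714), and the members lay between -0.33 (Slc25a20) and 0.20 (Hadhb). Against paclitaxel, edgeR and DESeq2 called 0 of 10 members and none had an unadjusted p under 0.05, where 0% and 2.36% of all genes did by edgeR. The log2 fold change of Hadha was 0.18 ± 0.11 (edgeR adjusted p = 1), and the members lay between -0.22 (Cpt2) and 0.21 (Hadhb).

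The interaction, the change with the combination minus the changes with each single drug, is 0 where the effects of the drugs add on the log2 scale. For Hadha it was 0.64 ± 0.16, with the combination less far below vehicle than the sum of the single drugs. This did not pass by edgeR (adjusted p = 0.2189), and DESeq2 gave an adjusted p of 0.03339. Hadha was the 1 member of 10 at an unadjusted p under 0.05, against 9.83% of all genes, and edgeR called 0 of 10 members, against 0.0603% of all genes. Acads had an interaction of 0.54 ± 0.26 (edgeR adjusted p = 0.5169).

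The neighbouring steps of the pathway were read from lists of related genes, whose counts over any drug stand beside 6.32% of all genes called and 3.46% called lower. Of 20 other tested genes of mitochondrial beta-oxidation, 1 was called over any drug. That gene, Hadh, the dehydrogenase for medium and short hydroxyacyl chains, averaged 37.7 ± 1.74 CPM with MBQ-167, 35.4 ± 6.50 CPM with paclitaxel, 35.3 ± 2.18 CPM with the combination and 50.2 ± 12.4 CPM with vehicle. Its log2 fold change over any drug was -0.48 ± 0.13 (edgeR adjusted p = 0.04954), and it passed in 2 of 12 fits without a library. Without vehicle library 1 it was -0.2609 (edgeR adjusted p = 0.3281), with the GC correction the adjusted p of Hadh was 0.07974, and with protein-coding genes only it was 0.0524. In that list 16 of 20 genes lay below 0, with a median of -0.16, beside -0.0037 over all genes tested, of which 9206 of 18252 lay below 0.

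Of 19 tested genes of fatty acid uptake, activation and lipolysis, 2 were called over any drug, both lower. Slc27a1, a fatty acid transport protein, averaged 55.3 ± 1.45 CPM with MBQ-167, 47.2 ± 0.973 CPM with paclitaxel, 50.3 ± 4.75 CPM with the combination and 69.6 ± 11.5 CPM with vehicle. Its log2 fold change over any drug was -0.46 ± 0.10 (edgeR adjusted p = 0.01584). Plin3, a lipid droplet coat protein, averaged 47.2 ± 3.50, 48.4 ± 6.91 and 50.8 ± 3.90 CPM in the MBQ-167, paclitaxel and combination groups and 66.3 ± 3.83 CPM with vehicle. Its log2 fold change over any drug was -0.44 ± 0.10 (edgeR adjusted p = 0.01755). Over any drug each passed in 11 of 12 fits without a library, and without vehicle library 1 neither did (Slc27a1 -0.3173, edgeR adjusted p = 0.114; Plin3 -0.4243, 0.09105). Both genes also passed with paclitaxel (Slc27a1 -0.56 ± 0.12, edgeR adjusted p = 0.01934; Plin3 -0.46 ± 0.12, 0.0439), and neither passed there with the GC correction (0.08231 and 0.1099) or in a fit of only these 2 groups (0.07902 and 0.12).

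Of 16 tested regulators of fatty acid oxidation, 1 was called over any drug. That gene, Ppard, a nuclear receptor that activates fatty acid oxidation genes, averaged 35.7 ± 1.76 CPM with MBQ-167, 36.8 ± 3.17 CPM with paclitaxel, 31.5 ± 3.63 CPM with the combination and 46.1 ± 8.30 CPM with vehicle. Its log2 fold change was -0.42 ± 0.11 (edgeR adjusted p = 0.04001), and with the GC correction its adjusted p was 0.07512. Ppard passed in 3 of 12 fits without a library, and without vehicle library 3 it was -0.2593 (edgeR adjusted p = 0.1837). Ppara and Ppargc1a, the receptor and the coactivator best known for this pathway in liver and muscle, summed to 31 and 36 counts over all 12 libraries, too few to be tested. So did the muscle form of the entry enzyme, Cpt1b, at 36 counts. Over any drug DESeq2 called 1815 of the 18252 genes. In the peroxisomal list 0 of 16 genes were called over any drug by edgeR and 2 by DESeq2. In that list 3 were at an unadjusted p under 0.05, against 23.1% of all genes. Of 11 tested PPAR targets outside the set, 0 were called over any drug by edgeR and 1 by DESeq2. Among these targets 6 were at an unadjusted p under 0.05, 5 lower and 1 higher, against 23.1% of all genes.

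**Figure D4:**
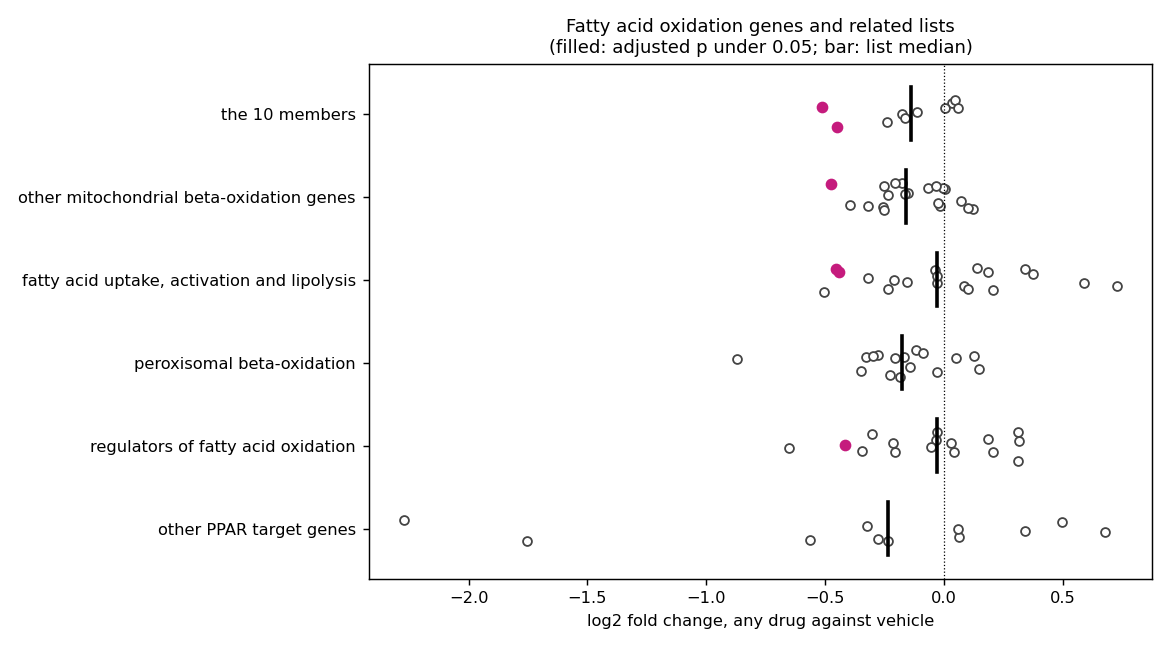
Log2 fold changes over any drug against vehicle (horizontal axis) for the 10 genes and 5 lists of related genes, with 1 point per tested gene and a bar at the list's median. Filled points passed at an adjusted p under 0.05; the medians were -0.14 for the 10 genes and -0.16 for the other mitochondrial beta-oxidation genes, and the called genes all lay below 0.

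No pair of the 10 genes passed a test of correlation over the 12 libraries. Of 45 pairs, 0 had a Pearson correlation of their log2 CPM with an adjusted permutation p under 0.05, and the correlations ran from -0.49 to 0.75 with a median of 0.18. The highest was that of Acads with Acadm, at Pearson r = 0.752 (permutation p = 0.00447, adjusted 0.201, n = 12 libraries). Its Spearman rho was 0.783 (permutation p = 0.00358, adjusted 0.102). Without the 2 libraries farthest from the median of Acads, which are vehicle libraries 1 and 2, the Pearson r was 0.549. With the mean of each group subtracted, r was 0.573 for Acads with Acadm and 0.931 for Acads with Acadvl, the highest of the 45 pairs. These within-group values were not tested. In combination library 1 both Acads (40.2 CPM) and Acadvl (65.6 CPM) stood above the other combination libraries. Over the 12 libraries Acads with Acadvl had r = 0.584. Among other genes with at least 1 CPM, those most like Hadha over the 12 libraries were Ddit3 (Pearson r = 0.939), Herpud1 (0.929), Hagh (0.928), Plin3 (0.927) and Timp2 (0.926). Those most like the mean of the 10 members were Gm15013 (0.917), Rsf1os2 (0.911), Psma6 (0.911), Psmb1 (0.909) and Taco1os (0.907). These are the top of those among the 18252 tested genes that averaged at least 1 CPM. The 12 libraries share their group differences, and the values describe the ranking alone. Rsf1os2 and Taco1os are named as antisense genes, whose reads cannot be told from those of their partners if strand was not used.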

How the data were processed

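The authors deposited raw counts per gene and library; HISAT2, HTSeq, DESeq2 and GRCm38 are named in the submitters' processing notes. Not given in the sources used here are tool versions, strandedness and how multi-mapped reads were counted. The labels name 2 injection occasions without tying libraries to them, so an effect of occasion cannot be told apart from the groups. Symbols, exons and GC content (of the longest transcript per gene) came from GENCODE vM21 (45229 of 46078 identifiers matched), promoters from RefSeq.

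Genes kept by filterByExpr (minimum count 10) were fitted with edgeR 4.0.16 (TMM, quasi-likelihood, all 12 libraries, no block), and p-values were adjusted over 18252 genes in each of 7 comparisons; n is 3 per group, SE is the log2 fold change over the root of F, and 3 against 3 cannot reach an exact p below 0.1. CPM are TMM-scaled. The alternatives were DESeq2 1.42.0, RLE factors, other filters, the replicate number as a block, a GC offset (spline, 5 degrees of freedom), protein-coding genes only, only the groups compared, and leaving out each library. The fit was tested on simulated data. The deviations of same-numbered libraries of combination and vehicle correlated at 0.108, 0.215 and 0.188. In each other pair of groups at least 1 such correlation was 0.1 or less. Differently numbered libraries correlated at -0.194 (vehicle 3 with MBQ-167 1) to 0.227 (paclitaxel 2 with combination 3). That range holds the values of combination and vehicle. The check therefore cannot settle whether the numbers pair libraries, and the main fit took none as paired.

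The members and lists were chosen with earlier results of these data known. All 10 members are named in each comparison, and from each list every gene called, except for a result that is not reported here. The test of the Hadha to Hadhb ratio and its alternatives were added after the values were seen. R 4.3.3, Python 3.11.15 and scipy 1.17.1 were used.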

Additional observations from a re-analysis of the deposited data

How the results depend on the processing

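Hadha over any drug stayed below 0 in every setting and fit without a library (-0.50 to -0.42). The number of members called over any drug was 1 with the GC correction, 1 with protein-coding genes only and 0 to 2 without a library; with paclitaxel it was 2 by DESeq2, 2 with no filter, 0 with only the groups compared and 0 to 2 without a library; DESeq2 called 1 with MBQ-167 and 1 in the interaction. The other settings kept these counts. Over the whole table, DESeq2 called 325 genes with MBQ-167, 1772 with paclitaxel, 958 with the combination, 1815 over any drug, 1 and 5 for the combination against MBQ-167 and paclitaxel, and 153 in the interaction. With no filter on low counts these were 392, 1554, 849, 1764, 4, 7 and 197. The GC correction called 464 with paclitaxel and 84 with the combination, and only the groups compared gave 5 with MBQ-167, 251 with paclitaxel and 7 with the combination. Without a library the counts ran from 5 to 42 with MBQ-167, 230 to 1139 with paclitaxel, 29 to 416 with the combination, 291 to 1125 over any drug and 2 to 16 in the interaction. The lowest counts came without MBQ-167 library 2 or 3 (MBQ-167), paclitaxel library 2 (paclitaxel), combination library 1 (combination), vehicle library 1 (any drug), and MBQ-167 library 2 or 3, paclitaxel library 3 or combination library 2 (interaction). The Hadha to Hadhb difference was -0.0698 (exact p = 0.7091) with the GC correction and -0.65 to -0.39 without a library. The cause of these shifts was not tested.

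The check of their deviations could not settle whether the replicate numbers pair libraries. Over all groups, same-numbered libraries correlated at -0.175 to 0.252 and differently numbered ones at -0.194 to 0.227. The fit with the replicate block called 24, 1092, 300 and 1166 genes with MBQ-167, paclitaxel, the combination and over any drug, and the same number of members as without it; 3 values near 0 turned sign under the block: Hadhb with MBQ-167 to 0.00096, and Acadvl with the combination and over any drug to -0.00024 and -0.00018.

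Uncalled log2 fold changes near 0 changed sign elsewhere. With the GC correction, Acadl with paclitaxel became -0.13, Cpt2 and Hadhb with the combination 0.030 and -0.25, Hadhb over any drug -0.35, Acads for the combination against MBQ-167 0.015, and the interaction of Acadvl -0.039. With protein-coding genes only, Hadhb became 0.0037 with MBQ-167 and 0.0062 with paclitaxel, and Cpt2 0.0024 with the combination. Without a library, the values that crossed 0 ran as follows. With MBQ-167 they were -0.14 to 0.043 for Acadvl, -0.096 to 0.083 for Hadhb and -0.0016 to 0.32 for Slc25a20. With paclitaxel they were -0.072 to 0.12 for Acadl, -0.025 to 0.095 for Acadvl, -0.26 to 0.085 for Cpt1a, -0.11 to 0.075 for Hadhb and -0.18 to 0.19 for Slc25a20. With the combination they were -0.19 to 0.096 for Acadvl, -0.36 to 0.025 for Cpt1a and -0.12 to 0.051 for Cpt2. Over any drug they were -0.067 to 0.053 for Acadvl, -0.074 to 0.099 for Cpt2, -0.034 to 0.15 for Hadhb and -0.16 to 0.16 for Slc25a20. For the combination against MBQ-167 they were -0.29 to 0.083 for Acads, -0.14 to 0.14 for Acadvl, -0.093 to 0.24 for Cpt1a and -0.0047 to 0.20 for Cpt2. For the combination against paclitaxel they were -0.16 to 0.041 for Acadm, -0.16 to 0.21 for Acads, -0.23 to 0.057 for Acadvl, -0.23 to 0.11 for Cpt1a and -0.32 to 0.048 for Slc25a20. In the interaction they were -0.18 to 0.10 for Acadvl and -0.20 to 0.0032 for Cpt2.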
